A study of Mus musculus with 9 samples.

Results

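The core clock loop of the mouse liver was described here by 10 genes: the activators Arntl (BMAL1), Clock and Npas2 of the positive arm, the repressors Per1, Per2, Per3, Cry1 and Cry2 of the negative arm, and Nr1d1 and Nr1d2, which encode the nuclear receptors REV-ERBα and REV-ERBβ. They were the rows of the gene table whose identifiers carry these symbols in GENCODE release M21, 10 of 54393 rows. All 10 passed the filter on low counts, as did 14873 genes in all. RNA from liver was sequenced in 9 libraries from mice of the strain given as C56Bl/6j, all fed the purified diet AIN-76a. There were 5 control libraries (replicates 1 to 5), labelled as without antibiotics, and 4 libraries (replicates 1, 2, 3 and 5) from mice that had received antibiotics that stay in the gut, to deplete its bacteria. The labels name neither the antibiotics, the length of treatment, the age or sex of the mice, nor the hour at which livers were taken.

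The clock is a feedback loop of transcription. BMAL1 pairs with CLOCK or with its paralog NPAS2, binds E-box sequences and switches on the Per, Cry and Rev-erb genes, whose protein products then act back: PER and CRY proteins inhibit the activator pair, and the REV-ERB receptors repress Arntl and Npas2 through ROR elements. In liver the loop runs over the day with the transcripts of the positive arm high when those of Per and Rev-erb are low, so a single collection shows each animal at 1 point of its cycle.

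Sequences around the start of 3 members are shown because the results turn on these genes and each carries a letter motif of a clock factor. They were read from RefSeq promoter windows (GRCm38.p6, 250 bases before to 50 after a gene's start), which matched 9 of the 10 members by symbol with 13 windows, and not Per2. Capitals mark the motif matches, and positions are counted from the start of transcription of the window shown, with negative positions upstream. That start can differ from the end of the GENCODE gene coordinates given below. The stretch of Arntl comes from the second of its 2 windows, whose starts differ.

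Per3, chr4:151044666-151044915, minus strand, positions -250 to -1, with a pair of D-boxes in capitals: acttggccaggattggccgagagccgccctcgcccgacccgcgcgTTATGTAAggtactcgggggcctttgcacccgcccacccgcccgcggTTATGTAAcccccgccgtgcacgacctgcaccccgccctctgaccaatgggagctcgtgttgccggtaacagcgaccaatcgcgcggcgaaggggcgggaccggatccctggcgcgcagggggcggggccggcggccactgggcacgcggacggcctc

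Arntl, chr7:113207529-113207558, plus strand, positions 19 to 48, with the core of a ROR element in capitals: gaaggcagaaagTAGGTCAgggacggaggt

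Nr1d1, chr11:98775378-98775477, minus strand, positions -100 to -1, with an E′-box, read on the opposite strand, in capitals: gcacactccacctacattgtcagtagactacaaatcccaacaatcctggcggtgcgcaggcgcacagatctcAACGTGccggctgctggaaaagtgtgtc

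Each motif was searched on both strands: the E-box CACGTG, the E′-box CACGTT, the D-box as TTATGTAA or TTACGTAA, and the ROR element core as TAGGTCA or TGGGTCA. D-boxes are bound by DBP, TEF and HLF, which activate, and by NFIL3, which represses. The D-box occurred in 1.06% of all 32851 windows of the same length, and among the members only in that of Per3, at positions -205 to -198 and -158 to -151. The ROR core (6.45% of all windows) occurred only in 1 of the windows of Arntl, at 31 to 37. An E-box (7.15% of all windows) stood in windows of Per1 and Cry1, and an E′-box (4.68%) in those of Cry1, Cry2 and Nr1d1. The windows of Clock, Npas2 and Nr1d2 held none of these letters. A match is a run of letters and not a measured binding site.

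Of the negative arm, Per3 was higher with antibiotics, at 16.4 ± 6.45 CPM in controls (SD, n = 5) and 37.2 ± 5.64 CPM with antibiotics (SD, n = 4), where CPM (TMM-scaled) are each gene's counts relative to the scaled library size. All 3 genes of the positive arm had lower means with antibiotics without passing the test, Arntl at 5.62 ± 1.41 and 2.72 ± 1.12 CPM. The pair of REV-ERB genes had differences of opposite sign: Nr1d1 measured 135 ± 12.6 and 105 ± 8.55 CPM, and Nr1d2 92.5 ± 13.7 and 109 ± 6.87 CPM. At an adjusted p under 0.05 (edgeR, quasi-likelihood, p-values adjusted over all tested genes), 1 of 10 members was higher and 0 lower, against 2.68% of all tested genes called, 1.63% higher and 1.05% lower. At an unadjusted p under 0.05 there were 8 of the 10 members, against 18.5% of all tested genes. The groups did not overlap in 2 members, Per3 and Nr1d1, against 8.88% of all tested genes. The members were chosen with earlier results of these data known, so these shares describe them and are no independent evidence of a difference. The median log2 fold change was -0.04 over the members and -0.01 over all tested genes, 5 members being above and 5 below 0. With bulk RNA, fewer cells of a type and less RNA per cell cannot be told apart.

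**Figure D1:**
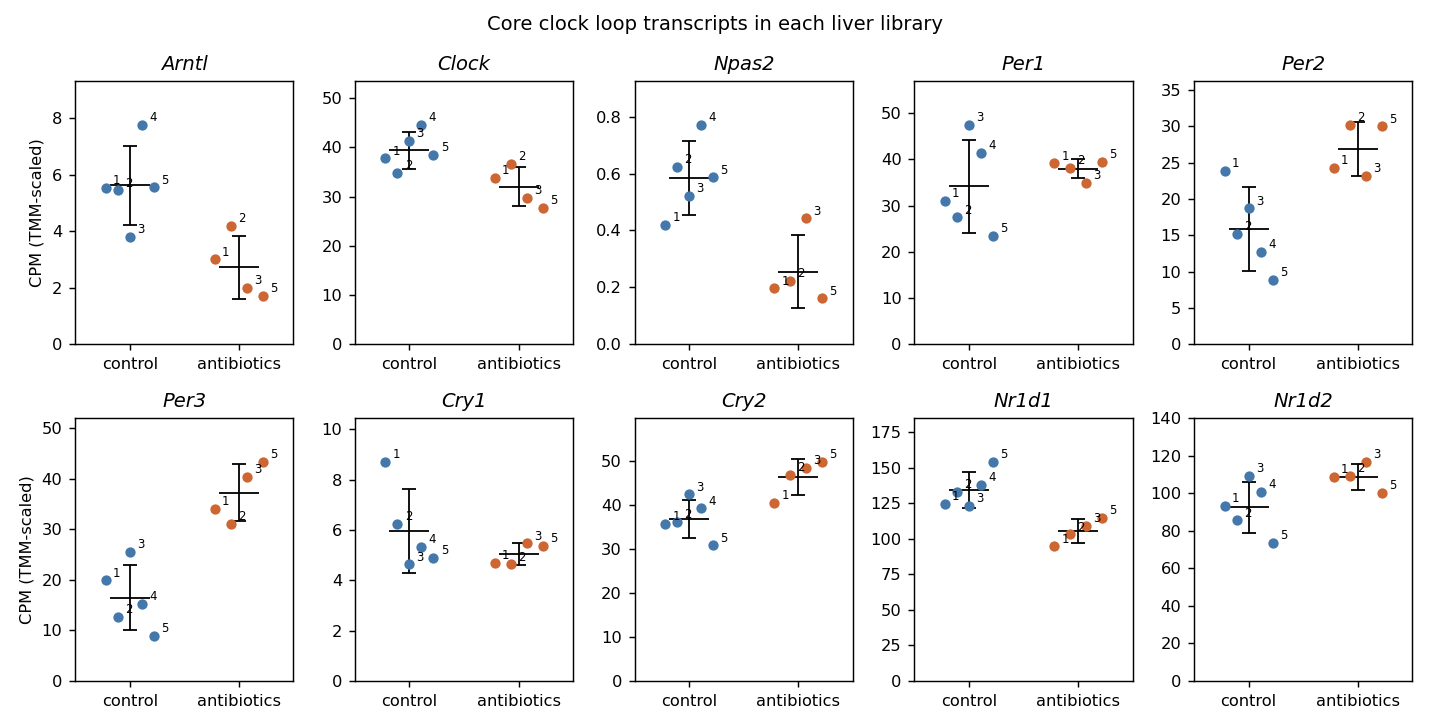
TMM-scaled CPM (y axis, from 0) of the 10 members in each of 5 control and 4 antibiotics libraries, numbered by replicate; black bars are the mean and SD of a group. The groups do not overlap for Per3 and Nr1d1, and Arntl overlaps through control library 3 and antibiotics library 2.

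Library totals ran from 28156248 to 49628737 counts in controls and from 15422891 to 59179622 with antibiotics, with library 5 above, and libraries 1, 2 and 3 below, the whole control range. As the liver label requires, 6 hepatocyte markers were abundant, with summed levels of 78559 to 93378 CPM in controls and 79896 to 90359 CPM with antibiotics. Summed markers of endothelial cells (144 to 184 and 151 to 160 CPM), Kupffer cells (128 to 377 and 129 to 166 CPM), stellate cells (121 to 167 and 135 to 157 CPM), bile duct cells (33.8 to 93.3 and 33.4 to 66.6 CPM) and lymphocytes (5.29 to 13.3 and 6.47 to 7.66 CPM) overlapped between the groups. Of the exocrine pancreas markers Prss1 and Pnlip were at 0 in all libraries, the list summing to 9.89 to 15 and 10.1 to 20.9 CPM. Adipocyte markers summed to 6.09 to 7.92 and 5.75 to 9.78 CPM. No tested marker of any of these lists passed, but only 1 of 4 exocrine pancreas and 1 of 4 adipocyte markers were tested. The groups did not overlap in 2 of 6 hepatocyte markers, against 8.88% of all tested genes. These were Ass1 and Cyp2e1, both with higher means with antibiotics (edgeR adjusted p = 0.0546 and 0.0661). The share of mitochondrially encoded mRNA, which moves with RNA quality, was 4.34% to 6.55% in controls and 6.37%, 7.35%, 7.08% and 5.19% in antibiotics libraries 1, 2, 3 and 5. Antibiotics libraries 1 and 5 thus lay within the control range of that share and libraries 2 and 3 above it, and its part in the differences described here was not tested.

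The positive arm held Arntl, Clock and Npas2. Arntl (ENSMUSG00000055116.8, chromosome 7, 113207465 to 113314126, GRCm38) encodes the activator subunit without which the loop does not run. It measured 5.53, 5.45, 3.80, 7.76 and 5.54 CPM in control libraries 1 to 5, and 3.01, 4.18, 1.99 and 1.71 CPM in antibiotics libraries 1, 2, 3 and 5. Control library 3 was the lowest control and lay below antibiotics library 2, so the groups overlapped through that pair of libraries. The log2 fold change was -1.09 ± 0.27 (SE), a 2.13-fold lower level (95% interval of the log2 value -1.69 to -0.49, adjusted p = 0.0597 with edgeR). With each of the 9 libraries omitted in turn, Arntl passed 2 times, without control library 3 (adjusted p = 0.0420) and without antibiotics library 2 (0.0355), and its adjusted p otherwise ran from 0.0704 to 0.160.

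Npas2 (ENSMUSG00000026077.15, chromosome 1, 39193731 to 39363236), the paralog that can stand in for CLOCK, was scarce. Its counts were 17, 30, 17, 34 and 16 in control libraries 1 to 5 and 3, 4, 8 and 10 in the antibiotics libraries, or 0.420, 0.624, 0.521, 0.771 and 0.587 CPM against 0.196, 0.223, 0.442 and 0.161 CPM. Only antibiotics library 3 reached the control range, and it did so on 8 counts. The log2 fold change of -1.29 ± 0.36 (SE) had a 95% interval from -2.07 to -0.51 (edgeR adjusted p = 0.0776).

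Clock (ENSMUSG00000029238.11, chromosome 5, 76209868 to 76304792), the partner of BMAL1 and the member of this arm known to cycle least, had 34.8 to 44.6 CPM in controls and 27.7 to 36.6 CPM with antibiotics. Its log2 fold change was -0.30 ± 0.10 (SE, 95% interval -0.52 to -0.09, edgeR adjusted p = 0.131). All 3 activators thus had intervals below 0, and 0 of 3 passed. Within a library, the count of Arntl per count of Clock was 0.146, 0.156, 0.0919, 0.174 and 0.144 in controls and 0.0888, 0.114, 0.0668 and 0.0615 with antibiotics.

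The negative arm held 5 genes, of which Per3 passed. Per3 (ENSMUSG00000028957.12, chromosome 4, 151003652 to 151044665), a PER family member that the loop can do without, measured 19.9, 12.6, 25.5, 15.3 and 8.96 CPM in control libraries 1 to 5. With antibiotics it measured 34.0, 31.1, 40.4 and 43.3 CPM in libraries 1, 2, 3 and 5, each above the highest control, library 3. Per3 rose by 1.18 ± 0.24 on the log2 scale (SE, 2.27-fold, edgeR adjusted p = 0.0334). Omitting control library 1 lifted the adjusted p to 0.0527 and so ended the call, as did omitting control library 2 (0.0647) or 4 (0.0669) or antibiotics library 1 (0.0773), 3 (0.0909) or 5 (0.102), while the log2 fold change stayed between 1.03 and 1.39 over the 9 omissions, and its adjusted p stayed under 0.05 without control library 3 (0.0140), control library 5 (0.0272) or antibiotics library 2 (0.0486).

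Per2 (ENSMUSG00000055866.9, chromosome 1, 91415982 to 91459324), a core repressor, had 23.9, 15.2, 18.7, 12.7 and 8.85 CPM in controls and 24.3, 30.2, 23.2 and 30.0 CPM with antibiotics. Control library 1 lay above antibiotics library 3, and the other controls were below all antibiotics libraries. Its log2 fold change was 0.76 ± 0.23 (SE, 95% interval 0.26 to 1.26, edgeR adjusted p = 0.0985). It passed in 1 of the 9 omissions, without control library 1 (adjusted p = 0.0488), and the other 8 gave 0.0863 to 0.228.

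Per1 (ENSMUSG00000020893.17, chromosome 11, 69095217 to 69109960), a PER repressor that also responds to glucocorticoids, had 31.1, 27.4, 47.5, 41.5 and 23.4 CPM in controls and 39.1, 38.2, 35.0 and 39.5 CPM with antibiotics. The antibiotics libraries all lay inside the control range. The log2 fold change of 0.15 ± 0.18 (SE) had an interval from -0.24 to 0.54 (edgeR adjusted p = 0.698). The PER paralogs thus spanned log2 values from 0.15 to 1.18, and the intervals of Per1 and Per3 did not overlap, although the difference between them was not tested.

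The cryptochromes, partners of the PER proteins in the repressor complex, had differences of opposite sign. Cry2 (ENSMUSG00000068742.11, chromosome 2, 92403646 to 92434043) measured 35.6, 36.2, 42.4, 39.2 and 30.8 CPM in controls and 40.5, 46.8, 48.3 and 49.8 CPM with antibiotics, with overlap only between control library 3 and antibiotics library 1 (log2 fold change 0.33 ± 0.10, SE, edgeR adjusted p = 0.0907). Cry1 (ENSMUSG00000020038.10, chromosome 10, 85131700 to 85185064) measured 8.72, 6.24, 4.63, 5.33 and 4.88 CPM in controls and 4.71, 4.63, 5.47 and 5.36 CPM with antibiotics. Control libraries 1 and 2 stood above all antibiotics libraries, and the other 3 controls lay within their range (log2 fold change -0.24 ± 0.18, SE, 95% interval -0.64 to 0.16, edgeR adjusted p = 0.522). The count of Cry1 per count of Cry2 was 0.245, 0.173, 0.109, 0.136 and 0.159 in controls and 0.116, 0.0989, 0.113 and 0.108 with antibiotics.

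The REV-ERB receptors close the second loop as repressors of Arntl. Nr1d1 (ENSMUSG00000020889.11, chromosome 11, 98767932 to 98775333) measured 125, 133, 123, 138 and 154 CPM in control libraries 1 to 5 and 94.8, 103, 109 and 115 CPM in antibiotics libraries 1, 2, 3 and 5. Every antibiotics library lay below the lowest control, by a narrow gap from 115 to 123 CPM. The log2 fold change was -0.35 ± 0.08 (SE, 95% interval -0.54 to -0.17, edgeR adjusted p = 0.0537). It passed in 1 of the 9 omissions, without control library 3 (adjusted p = 0.0473), and the other 8 gave 0.0631 to 0.153. Exons of Nr1d1 overlap those of the thyroid hormone receptor gene Thra on the other strand by 263 of 3077 bases. Thra measured 7.97 ± 0.960 and 7.63 ± 0.80 CPM (log2 fold change -0.06, edgeR adjusted p = 0.819), well below the level of Nr1d1.

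Nr1d2 (ENSMUSG00000021775.11, chromosome 14, 18204054 to 18239127) measured 93.3, 85.6, 109, 101 and 73.7 CPM in controls and 109, 109, 117 and 100 CPM with antibiotics. Its log2 fold change was 0.23 ± 0.11 (SE, 95% interval 0.00 to 0.46, edgeR adjusted p = 0.265), and the groups overlapped. A processed pseudogene, AC170187.1, shares 1385 nt with Nr1d2 at 95% identity or more, but held at most 2 counts in any library. The ratio of Nr1d1 to Nr1d2 counts within a library, which no scaling factor touches, was 1.34, 1.55, 1.13, 1.37 and 2.09 in controls and 0.870, 0.944, 0.935 and 1.15 with antibiotics. Only antibiotics library 5 reached the control range, lying above control library 3.

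**Figure D2:**
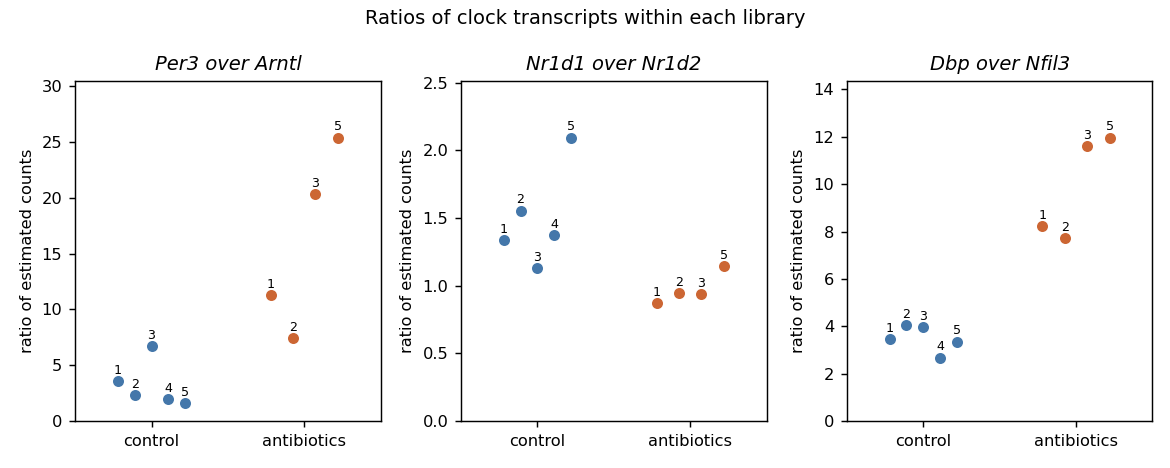
Ratio of estimated counts of pairs of clock transcripts within each library (y axis, from 0), in 5 control and 4 antibiotics libraries numbered by replicate. Per3 over Arntl ran from 1.62 to 6.72 in controls and from 7.44 to 25.4 with antibiotics; the pairs were chosen with the values known.

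The count of Per3 per count of Arntl sets the arms against each other in 1 number per library. It was 3.59, 2.32, 6.72, 1.97 and 1.62 in control libraries 1 to 5, and 11.3, 7.44, 20.3 and 25.4 in antibiotics libraries 1, 2, 3 and 5. Control library 3 came nearest to the antibiotics libraries, and antibiotics library 2 nearest to the controls. No test was made of this ratio, since its genes were chosen for their difference.

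Spread among controls was larger for the Per genes than for the receptors. The coefficient of variation over the 5 controls was 39.2% for Per3, 36.2% for Per2 and 29.3% for Per1, against 9.38% for Nr1d1 and 14.8% for Nr1d2, and 9.39% for Clock. Over the 4 antibiotics libraries it was 15.2%, 13.7% and 5.46% for the Per genes, and 41.2% and 49.7% for Arntl and Npas2, whose counts were lowest there. Control libraries 3 and 5 lay at opposite ends. Library 5 was the lowest control for Per1, Per2, Per3, Cry2 and Nr1d2 and the highest for Nr1d1. Library 3 was the highest control for Per1, Per3, Cry2 and Nr1d2 and the lowest for Arntl, Cry1 and Nr1d1. Library 3 also had the highest control share of mitochondrially encoded mRNA, 6.55%, and library 5 the lowest, 4.34%. Among antibiotics libraries, library 2 had the highest share (7.35%) and library 5 the lowest (5.19%). There Per3 was lowest in library 2 (31.1 CPM) and highest in library 5 (43.3 CPM), whereas Nr1d2 was lowest in library 5 (100 CPM). The bearing of that share on these levels was not tested.

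**Figure D3:**
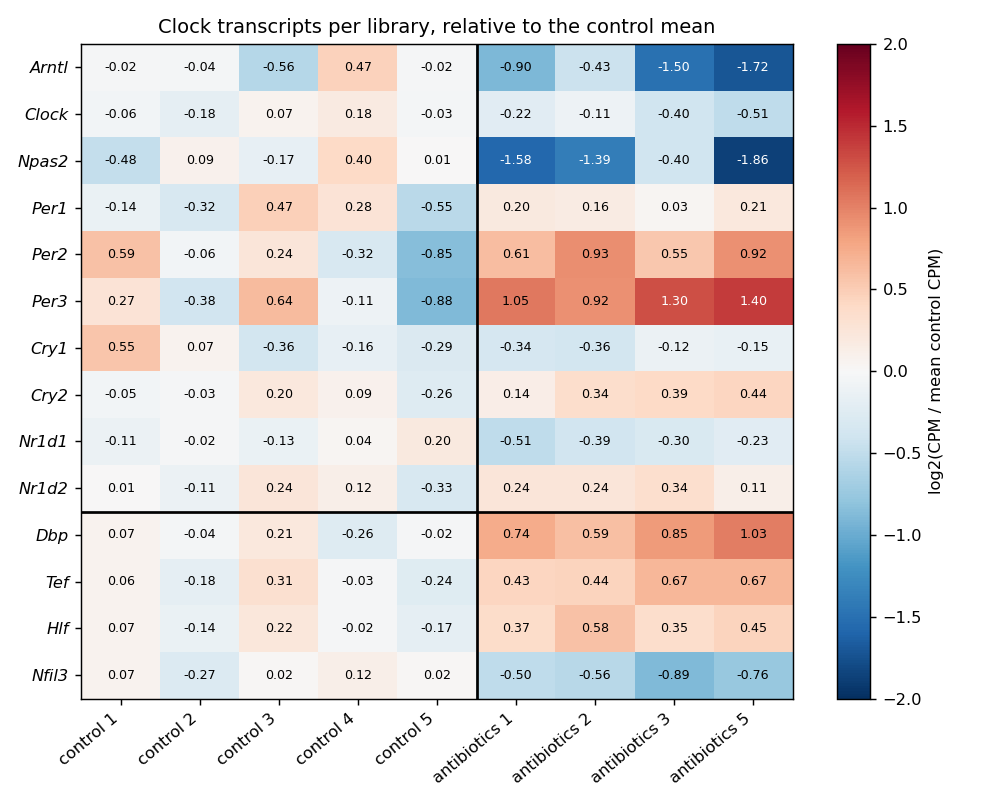
Log2 of each library's CPM over the mean control CPM (colour and printed value) for the 10 members and for Dbp, Tef, Hlf and Nfil3, in 5 control and 4 antibiotics libraries. In all 4 antibiotics libraries Per1, Per2, Per3, Cry2 and Nr1d2 are above 0 and Arntl, Clock, Npas2, Cry1 and Nr1d1 below 0, though most members overlap the controls.

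Between genes, levels were compared per kb of exon (CPM per kb of the merged exons of all annotated isoforms, which understates genes with long rare isoforms). In controls the order was Nr1d1 (43.8 ± 4.10), Nr1d2 (17.1 ± 2.53), Per1 (6.07 ± 1.78), Cry2 (5.83 ± 0.685), Clock (2.87 ± 0.270), Per2 (2.71 ± 0.982), Cry1 (1.78 ± 0.496), Per3 (1.71 ± 0.671), Arntl (0.746 ± 0.187) and Npas2 (0.122 ± 0.0271). Per1 and Cry2, Clock and Per2, Per2 and Cry1, and Cry1 and Per3 did not differ beyond their spread as neighbours in that order. With antibiotics the ends of the order were the same genes, Nr1d1 at 34.3 ± 2.78 and Npas2 at 0.0533 ± 0.0265 CPM per kb. In the middle, Per2 (4.60 ± 0.631) and Per3 (3.87 ± 0.587) stood above Clock (2.33 ± 0.291), where in controls Per2 and Clock were level and Per3 was below.

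Beyond the members, 41 other clock genes were listed in 3 groups, and 40 were tested. The exception was Rorb, with at most 1 count in any library. Of the 40, 8 were higher and 2 lower with antibiotics, with a median log2 fold change of 0.08 against -0.01 for all tested genes, and 22 had an unadjusted p under 0.05. The groups did not overlap in 13 of them. Over all tested genes these shares were 1.63% higher, 1.05% lower, 18.5% at an unadjusted p under 0.05 and 8.88% without overlap. These lists too were chosen with earlier results of these data known, so the comparison only describes them. With 1 library omitted at a time, the counts higher and lower were 4 and 1 without control library 1, 3 and 1 without control library 2, 2 and 1 without control library 4, 1 and 1 without antibiotics library 1, 1 and 0 without antibiotics library 3 and 1 and 0 without antibiotics library 5. They were 10 and 2, 8 and 2, and 6 and 3 without control libraries 3 and 5 and antibiotics library 2.

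Among 12 tested transcription factors and repressors attached to the loop, 4 rose and 1 fell, with a median log2 fold change of 0.48. Over all tested genes 1.63% were higher and 1.05% lower. The D-box activators rose together. Dbp, the one with the strongest daily rhythm, measured 66.6, 61.7, 73.7, 53.2 and 62.5 CPM in controls and 106, 95.9, 115 and 130 CPM with antibiotics (log2 fold change 0.82 ± 0.11, SE, edgeR adjusted p = 0.00767). Tef rose 1.47-fold (118 to 173 CPM in controls, 187 to 222 CPM with antibiotics, adjusted p = 0.0328 with edgeR) and Hlf 1.36-fold (35.1 to 46.2 and 50.6 to 59.3 CPM, adjusted p = 0.0330). Nfil3, the D-box repressor, fell by 0.67 ± 0.11 on the log2 scale (15.2 to 19.9 and 9.89 to 12.9 CPM, edgeR adjusted p = 0.0140).

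The count of Dbp per count of Nfil3 ran from 2.68 to 4.05 in controls and from 7.72 to 11.96 with antibiotics, with no overlap. With each of the 9 libraries omitted in turn, Dbp passed every time, Nfil3 7 times, Tef 3 times and Hlf 2 times. Exons of Dbp overlap Sphk2 on the other strand over 539 of 2993 bases, those of Cry2 a noncoding gene with at most 1 count over 295 bases, and no source used here states whether counting used the strand.

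**Figure D4:**
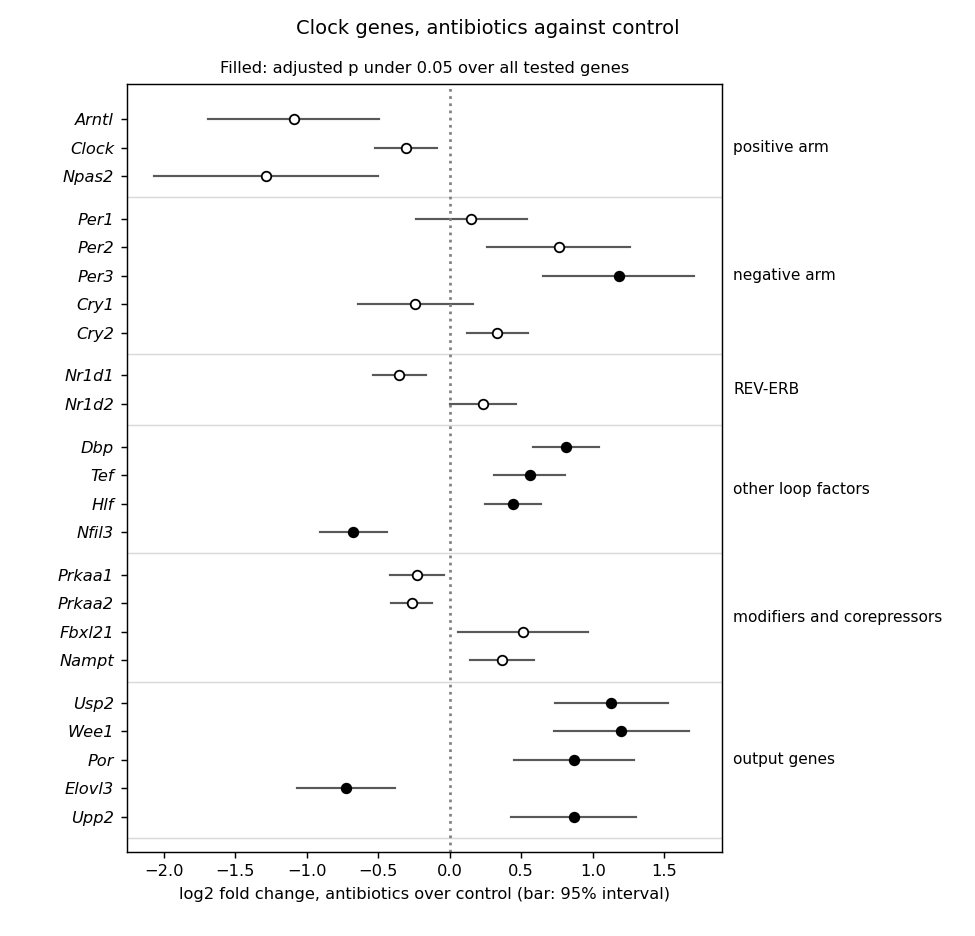
Log2 fold change of antibiotics over control (x axis) with its 95% interval for the 10 members and the other clock genes described, by group; filled circles passed at an adjusted p under 0.05 over all tested genes. Per3 is the filled member, at 1.18, and Dbp, Tef and Hlf lie to the right of 0 and Nfil3 to the left.

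Enzymes and corepressors that act on clock proteins showed 0 calls in 15 with edgeR, against 2.68% of all tested genes, and DESeq2 called 2. At an unadjusted p under 0.05 there were 5, against 18.5% of all tested genes, and the median log2 fold change was -0.07. The nearest were Prkaa2, a catalytic subunit of the AMP-activated kinase that phosphorylates CRY1, at 63.8 to 72.0 CPM in controls and 53.9 to 60.3 CPM with antibiotics (adjusted p = 0.0530), and Nampt, which makes the NAD precursor for SIRT1, at 44.6 to 57.0 and 53.9 to 74.8 CPM (adjusted p = 0.0834). Prkaa1, the other catalytic subunit, and the CRY ubiquitin ligase subunit Fbxl21 had edgeR adjusted p of 0.187 and 0.216.

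Among 13 output genes 4 rose and 1 fell, with a median log2 fold change of 0.27, where 1.63% of all tested genes were higher and 1.05% lower. Usp2, a deubiquitinase with a daily rhythm, measured 17.2 to 34.6 CPM in controls and 42.2 to 53.9 CPM with antibiotics (2.19-fold, adjusted p = 0.0141 with edgeR). Wee1, a cell cycle kinase driven through E-boxes, rose 2.30-fold (3.23 to 6.10 and 7.86 to 13.4 CPM, adjusted p = 0.0200). Por, the electron donor of the cytochromes P450, rose 1.83-fold (162 to 287 and 318 to 486 CPM, adjusted p = 0.0397), and Upp2, a uridine phosphorylase, rose 1.82-fold (236 to 551 and 572 to 763 CPM, adjusted p = 0.0470). Elovl3, a fatty acid elongase with a daily rhythm in liver, fell by 0.72 ± 0.16 on the log2 scale (249 to 404 and 145 to 225 CPM, adjusted p = 0.0388). Over the same omissions Usp2 passed 6 times, Wee1 5 times, Por and Elovl3 3 times each and Upp2 2 times.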

How the data were processed

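Liver libraries were made from RNA with a stranded mRNA kit, per the labels' protocols. The authors deposited estimated counts per gene. Per the submitters' processing notes, Salmon and GRCm38 were used. The sources used here state neither Salmon's version, nor its annotation, nor any use of strand. All deposited values were whole numbers and were used as they stood. All 54393 identifiers occur in GENCODE M21, which gave symbols, positions and exon lengths.

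Group and replicate number were read from each sample's title. Genes were kept by filterByExpr (minimum count 10, minimum total 15) and tested with edgeR 4.0.16 in R 4.3.3 on TMM-scaled counts, group being the only term, with Benjamini-Hochberg adjustment over 14873 genes and a threshold of 0.05. The SE is the log2 fold change divided by the square root of F. Whether every library is a separate mouse is not stated in the labels, and a p-value then reflects only spread among these 9 libraries, which may be technical. No pair of libraries within a group agreed within sampling noise (lowest chi-square per degree of freedom 20.2).

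The members and lists were chosen with earlier results of these data known. Named genes were the members, up to 4 genes of each other list with the smallest p and those that passed, and the 5 genes most like and most unlike Arntl and Nr1d1; some of these are not reported here, though counts over lists include them. The fit was repeated with DESeq2 1.42.0, limma-voom (limma 3.58.1), RLE or upper-quartile scaling, other filters and thresholds, thinned counts, a replicate block, totals that leave out the top 10 genes, and each library omitted in turn. Transcripts of members were compared with all others by BLAST 2.17.0 (95% identity over 200 nt).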

Additional observations from a re-analysis of the deposited data

Results flagged for a closer look

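Of 48 combinations of a group with a member or another clock gene named by its p, 2 held a library far from the others. Chance flags about 5% of groups. Nfil3 was lowest in control library 2, at 15.2 CPM, with the next control at 18.6 CPM, and was still above all antibiotics libraries. Prkaa1 was highest in control library 3, at 13.7 CPM, with the next control at 12.7 CPM. None of the 10 members had such a library in either group.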

How the results depend on the processing

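No log2 fold change of a member, or of another clock gene named by its p, changed sign under any alternative. Genes named for likeness to Arntl or Nr1d1, and Ciart, were not part of this check. DESeq2 called 503 genes higher and 474 lower, with 3 members higher (Per2, Per3 and Cry2) and 2 lower (Arntl and Nr1d1), and 12 other clock genes higher and 4 lower. One member was lower with limma-voom (Arntl), with no filter on low counts (Arntl) and when genes averaging under 1 CPM were dropped (Nr1d1). At an adjusted p under 0.10, edgeR called 527 and 410 genes, 3 members in each direction, and at 0.01 it called 15 and 5 genes, 0 members, and 1 and 0 other clock genes. With the replicate block, 115 genes were higher and 54 lower, 0 members passed (Per3 had an adjusted p of 0.0597), and 3 and 1 other clock genes passed. Deviations of same-numbered libraries correlated at -0.06 to 0.10 over 4 pairs, and 4 of 8 libraries correlated best with their own number. These values do not decide whether the numbers pair the samples. The main fit used no block because no label says that a replicate number marks a shared animal, litter or batch. When 1 library was left out, 28 to 276 genes were higher and 8 to 191 lower, 0 to 1 members higher and 0 to 2 lower, and 1 to 10 other clock genes higher and 0 to 3 lower. The 1 member higher without control library 1 was Per2, and otherwise it was Per3. The cause of these differences was not tested. Npas2, with 3 to 34 counts per library, is the member most limited by depth, and fell out when genes averaging under 1 CPM were dropped, and had an adjusted p of 0.0636 with DESeq2.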

Other observations

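Likeness to Arntl was described from log2 CPM centred on the group means, over 9 libraries and 12458 genes that averaged 1 CPM or more, so that the difference between the groups did not enter. Among the 5 genes most like Arntl were Cdkn1a, the cell cycle inhibitor p21 (Pearson r = 0.96), and Insig2, which retains sterol sensors in the endoplasmic reticulum (r = 0.92), both known as genes that REV-ERB receptors repress and both in the list of output genes, beside Map7 (0.96), 1700047I17Rik2 (0.93) and Srp54a (0.92). Cdkn1a measured 5.93, 9.69, 4.32, 14.8 and 9.10 CPM in controls and 5.03, 9.20, 2.15 and 2.17 CPM with antibiotics, with its highest value in control library 4 and its highest antibiotics value in library 2, as for Arntl (edgeR adjusted p = 0.284). Insig2 followed the same order at its ends, with 265 CPM in control library 4 and 106 CPM in antibiotics library 5 (adjusted p = 0.130). With Nr1d1, Cdkn1a had r = -0.02 and Insig2 r = -0.01. Their log2 fold changes were -0.97 ± 0.46 and -0.60 ± 0.19 (SE), below 0 as for Nr1d1. Whether REV-ERB receptors act on either gene in these livers was not tested. Among the 5 genes least like Arntl were Dbp (r = -0.95), C730027H18Rik (-0.93), Gm3650 (-0.93) and Kif13a (-0.92). Among the members, Clock had r = 0.71 and Per3 r = -0.51. The centred values share libraries and leave few degrees of freedom, so these r values describe 9 libraries and carry no p.

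For Nr1d1 the 5 most like genes were Myo1c (0.97), Prune1 (0.96), Gm44805 (0.96), Pxn (0.96) and Fam122a (0.95), and the 5 least like were Pdik1l (-0.96), Slco1b2 (-0.94), Gm47102 (-0.92), Golga7 (-0.92) and Ap1s2 (-0.92). None of them was in the clock lists. Nr1d1 and Arntl had r = -0.14, and Nr1d1 and Nr1d2 had r = -0.64.

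Among genes named after their values were seen, Ciart, a repressor of the BMAL1 and CLOCK pair, measured 10.7 ± 4.34 CPM in controls (SD, n = 5) and 21.6 ± 4.97 CPM with antibiotics (SD, n = 4; edgeR adjusted p = 0.0632).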
